A study of Arabidopsis thaliana with 12 samples.

Results

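A set of 108 genes of Arabidopsis thaliana, out of 26702 with values, was higher in seedlings given cycloheximide plus the peptide EPFL6 than in seedlings given cycloheximide alone. Cycloheximide is written CHX below. Members had a mean of at least 100 over the 3 CHX libraries and a mean with CHX plus EPFL6 of at least 1.6 times that. Every CHX plus EPFL6 library also had to stand above every CHX library, and AT4G31970, at a mean of 101 with CHX and 282 with CHX plus EPFL6, was left out. The members were thus chosen by the values of these 6 libraries, so they are described but not tested in any comparison that uses them. The 6 libraries without CHX took no part in the choice. Values are normalised read counts, which are reads per gene divided by 1 size factor per library. A ± after a mean is the SD over 3 libraries, and a ± after a log2 difference is the SE from a limma fit of log2(value + 1). That fit takes 1 spread per gene over all 4 groups, so a gene has the same SE in every comparison. Of the 26702 genes, 18624 met the minimum with CHX, and 125 of these, apart from AT4G31970, reached the fold. Overlapping libraries removed 17 of the 125. The rule turned round, for genes lower under both treatments than under the drug, found 657.

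EPFL6 is a secreted cysteine-rich peptide that is perceived by receptor kinases of the ERECTA family, which act in stomatal patterning, organ growth and the shoot meristem. Cycloheximide stalls translation on cytosolic ribosomes. A transcript that still answers a peptide while translation is fully blocked does so without new cytosolic protein synthesis. How far the drug blocked translation in these seedlings was not measured. Transcripts with labile repressors or labile decay factors can accumulate from the drug by itself. In Arabidopsis, transcripts of defence and stress genes are known to build up under translation inhibitors.

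The study crossed both treatments and sequenced polyadenylated RNA from 12 libraries, with 3 replicates in each of 4 groups. All groups carried the same mutations, clv3 epfl1 epfl2 epfl4 epfl6, so none is wild type and the peptide was added to plants whose own gene for it is mutated. Each replicate was a pool of 10 seedlings in 1 ml of liquid medium, collected 3 days after germination and labelled as shoot. Mock seedlings received buffer, EPFL6 seedlings 8.7 µl of a 10 µM solution (86.25 nM in the medium), CHX seedlings 10 µM cycloheximide followed after 10 minutes by buffer, and CHX plus EPFL6 seedlings the drug followed by the peptide. The labels used here do not give the time from the peptide to collection. Root genes were present under the shoot label: 10 root markers summed to 9015 in mock (range 7489 to 10088), 2120 with CHX and 1846 with CHX plus EPFL6. Depth was 40.2 to 106.6 M reads per library, and the libraries with CHX were deeper. CLV3, which is mutated in every group, still gave reads at a mean of 683 in mock and 4708 with CHX. In these pooled seedlings, fewer cells of a type and less RNA per cell cannot be told apart.

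The members did not form a single kind of gene. In 45 members (41.7%) every CHX library stood above every mock library, in 40 (37.0%) every CHX library stood below every mock library, and in 23 (21.3%) the groups overlapped. Of the genes with a CHX mean of at least 100, 43.3% stood above mock and 38.8% below, so these shares lie near the background. The 657 genes of the mirrored rule were divided otherwise, with 75.0% above mock and 13.7% below. The CHX libraries helped to choose both sets, so the shares carry no test.

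The rule required CHX plus EPFL6 to exceed CHX, so where CHX alone gave higher values, CHX plus EPFL6 had to stand further from mock. The median ratio to mock in these 45 members was 6.92 with CHX and 11.5 with CHX plus EPFL6. Of the 45, 18 were at least 10-fold above mock with CHX. By role, 13 of the 45 were other or unknown, 7 defence, 5 peroxidase and antioxidant, 5 transport, 4 cell wall, 4 primary and lipid metabolism, 3 receptor, 3 transcription and 1 detoxification. Where CHX alone gave lower values, the rule likewise fixed a rise from CHX. The median ratio in these 40 members was 0.453 with CHX and 0.797 with CHX plus EPFL6. Under both treatments, 29 of these 40 still had a mean below that of mock, and 11 were at or above it. All 8 members sorted as plastid and photosynthesis, a group drawn after the values were seen, belong to this class. In the 23 members whose CHX and mock libraries overlapped, the median ratio was 0.931 with CHX and 1.71 with CHX plus EPFL6, and 17 had every CHX plus EPFL6 library above every mock library. Over all genes with a CHX mean of at least 100 whose CHX and mock libraries overlapped, 20.6% did so, and 43.8% of all genes with a CHX mean of at least 100, and nothing is read from the difference, since the rule used the CHX plus EPFL6 libraries.

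**Figure D1:**
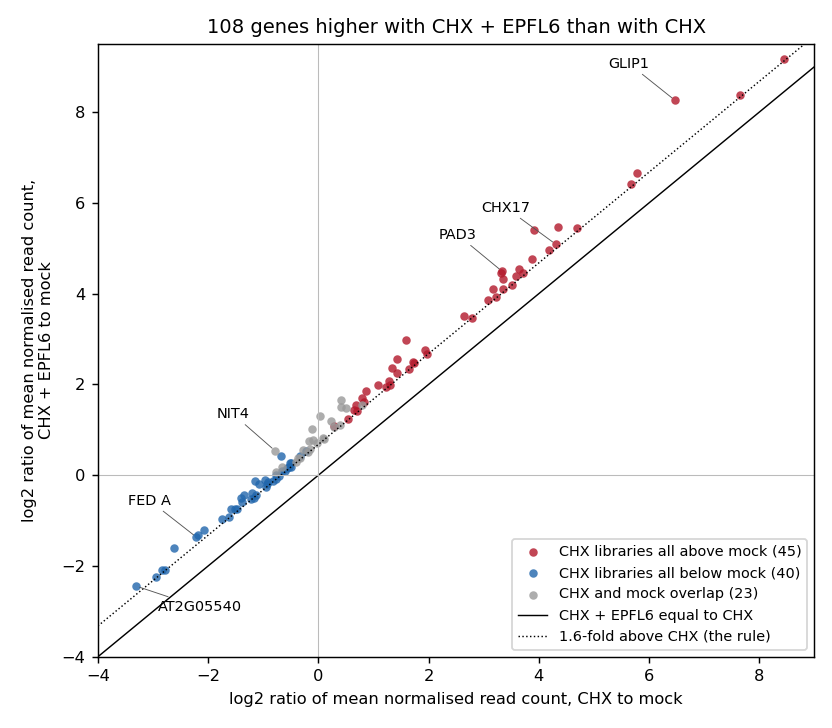
Each point is 1 of the 108 members, plotted by the log2 ratio of its mean normalised read count with CHX to mock (x axis) and with CHX plus EPFL6 to mock (y axis), each a mean of 3 libraries. All points lie on or above the dotted line because the rule required a 1.6-fold ratio, and they run along it from members far below mock to members far above it. The 45 members with CHX above mock, the 40 below and the 23 that overlap are coloured apart.

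The promoters of 4 members from the class above mock and of 1 from the class below are shown, because 2 short motifs were found in more member promoters than in promoters of all genes. The windows are the 250 bases before the annotated gene start, read 5′ to 3′ on the gene's strand from the RefSeq genome TAIR10.1. Capitals mark TTGAC and GCCGCC on either strand. TTGAC is the core of the W-box that WRKY factors bind, and GCCGCC the GCC box that ethylene response factors bind. The promoters shown are examples and do not stand for their classes. FED A, from the class below, holds neither motif, while TTGAC was in 22 of the 40 members of that class. AACT1, AT4G08780 and AT3G63380 hold GCCGCC, which was in 6 of the 45 members of the class above. GLIP1 lies at chr5:16418592-16418841 (plus strand), AACT1 at chr5:24608355-24608604 (plus), AT4G08780 at chr4:5603855-5604104 (plus), AT3G63380 at chr3:23410361-23410610 (minus) and FED A at chr1:22444057-22444306 (plus).
GLIP1: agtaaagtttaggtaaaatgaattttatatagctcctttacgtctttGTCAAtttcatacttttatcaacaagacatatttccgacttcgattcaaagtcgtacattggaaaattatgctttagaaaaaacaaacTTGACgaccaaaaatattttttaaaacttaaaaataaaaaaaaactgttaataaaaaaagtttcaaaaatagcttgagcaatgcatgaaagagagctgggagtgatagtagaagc
AACT1: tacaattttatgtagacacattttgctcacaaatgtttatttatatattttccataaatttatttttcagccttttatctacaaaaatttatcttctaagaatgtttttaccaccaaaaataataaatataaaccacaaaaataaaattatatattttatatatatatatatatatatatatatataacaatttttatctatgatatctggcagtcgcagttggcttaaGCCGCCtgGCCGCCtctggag
AT4G08780: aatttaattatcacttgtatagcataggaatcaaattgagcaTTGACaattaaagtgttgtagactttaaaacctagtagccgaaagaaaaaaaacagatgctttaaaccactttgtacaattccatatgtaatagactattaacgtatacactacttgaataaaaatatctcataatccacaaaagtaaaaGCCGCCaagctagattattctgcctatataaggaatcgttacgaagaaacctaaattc
AT3G63380: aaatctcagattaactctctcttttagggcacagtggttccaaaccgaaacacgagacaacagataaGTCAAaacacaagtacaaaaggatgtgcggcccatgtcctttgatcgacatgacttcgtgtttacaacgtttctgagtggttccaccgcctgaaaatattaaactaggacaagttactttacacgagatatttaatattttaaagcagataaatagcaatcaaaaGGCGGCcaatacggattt
FED A: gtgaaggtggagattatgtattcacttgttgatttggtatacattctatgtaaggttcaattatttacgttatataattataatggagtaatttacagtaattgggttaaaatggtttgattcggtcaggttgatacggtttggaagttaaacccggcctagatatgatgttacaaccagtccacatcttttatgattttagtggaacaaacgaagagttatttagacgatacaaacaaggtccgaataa

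TTGAC was present on at least 1 strand in 65 of 108 member promoters (60.2%) and in 44.9% of the 26513 promoters of the genes in the file. It was found in 68.9% of members with CHX above mock, against 52.2% of all such genes with a CHX mean of at least 100, and in 55.0% of members with CHX below mock, against 39.7%. GCCGCC was found in 7 member promoters (6.48%) and in 1.97% of all promoters. Of these 7, 6 were among the 45 members with CHX above mock (13.3%, against 2.21% of all such genes), and 0 were among the 40 below. They belonged to AT4G08780, AT3G44830, AACT1 with 2 copies, RABA1e, AT1G71280 and AT3G63380, and the seventh to NIT4. Other motifs were near the background: the G-box CACGTG was in 6.48% of members and 6.60% of all promoters, TGACG in 15.7% and 18.8%, and ATGTA in 54.6% and 51.9%. TTGAC and TGACG can share bases. These are matches of letters and were not tested.

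Defence and phytoalexin genes made up 8 members, 7 of them with CHX above mock. This group and the others below were assigned from annotation after the values were seen. Of all genes with a CHX mean of at least 100, 43.3% had CHX above mock. Among 13 salicylic acid defence genes outside the set, limma called 12 higher and 0 lower with CHX against mock. Among 8 jasmonate and ethylene defence genes it called 2 higher and 2 lower. GLIP1 (AT5G40990), a secreted GDSL lipase that acts in ethylene-linked resistance to fungi, had the largest ratio of the 108. GLIP1 stood at 13.8, 6.49 and 11.2 in mock, 12.7, 24.3 and 18.5 with EPFL6, 969.8, 808 and 1006 with CHX, and 2371, 3748 and 3544 with CHX plus EPFL6. The libraries without CHX were all under 25, the CHX libraries stood well above them, and the lowest CHX plus EPFL6 library was above the highest CHX library. The ratio of CHX plus EPFL6 to CHX was 3.47 and the log2 difference 1.77 ± 0.29.

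Genes tied to camalexin, the indole phytoalexin of Arabidopsis, were among the leading members. PAD3 (AT3G26830), the cytochrome P450 that makes camalexin in the last step of its pathway, was one. PAD3 measured 829, 246 and 1010.0 in mock, 505, 371 and 3157 with EPFL6, 8174, 4990.0 and 7847 with CHX, and 12793, 17485 and 16659 with CHX plus EPFL6. EPFL6 replicate 3 stood above every mock library while the other two EPFL6 libraries lay within the mock range, and every library with CHX was above all without it. Its ratio was 2.23 (log2 difference 1.18 ± 0.72, an error that includes the spread of the libraries without CHX). MYB122 (AT1G74080) is a transcription factor of indole glucosinolate and camalexin synthesis. MYB122 was at 69.9, 55.7 and 135 in mock, 75.0, 38.2 and 121 with EPFL6, 889, 882 and 809 with CHX, and 1554, 1796 and 2362 with CHX plus EPFL6. The mock and EPFL6 libraries overlapped, and the CHX plus EPFL6 libraries were all higher than the CHX libraries, at a ratio of 2.21 (log2 difference 1.12 ± 0.39). NIT4 (AT5G22300), a nitrilase that detoxifies cyanoalanine formed from cyanide, differed from both. NIT4 had values of 1214, 563 and 1366 in mock, 662, 595 and 1051 with EPFL6, 828, 365 and 624 with CHX, and 1422, 1484 and 1675 with CHX plus EPFL6. Its CHX libraries overlapped mock, and only the CHX plus EPFL6 libraries lay above all 3 mock libraries, at 2.52 times the CHX mean and 1.46 times the mock mean.

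The remaining 4 defence members had ratios between 1.66 and 1.87, and apart from BGLU17 they were picked for description after their values were seen. AACT1 (AT5G61160), an acyltransferase that couples coumaric acid to agmatine, was at a mean of 2925 ± 311 in mock, 42756 ± 6408 with CHX and 79701 ± 12359.5 with CHX plus EPFL6. The plant defensin gene LCR67 (AT1G75830) was at 38.3 ± 19.0, 701 ± 232 and 1189 ± 105, and the berberine bridge-type oxidase gene AT1G26410 at 27.8 ± 4.05, 5614 ± 593 and 9294 ± 1931. The last 2 genes belong to families with close copies, and reads may be shared among them. BGLU17 stood at 212, 278 and 194 in mock, 234, 208 and 233 with EPFL6, 358, 463 and 368 with CHX, and 550.4, 731 and 941 with CHX plus EPFL6. BGLU17 (AT2G44480) is a beta-glucosidase, an enzyme type that releases aglycones from stored glucosides, and its 4 groups stood in the order CHX plus EPFL6, CHX, then mock and EPFL6, which overlapped.

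**Figure D2:**
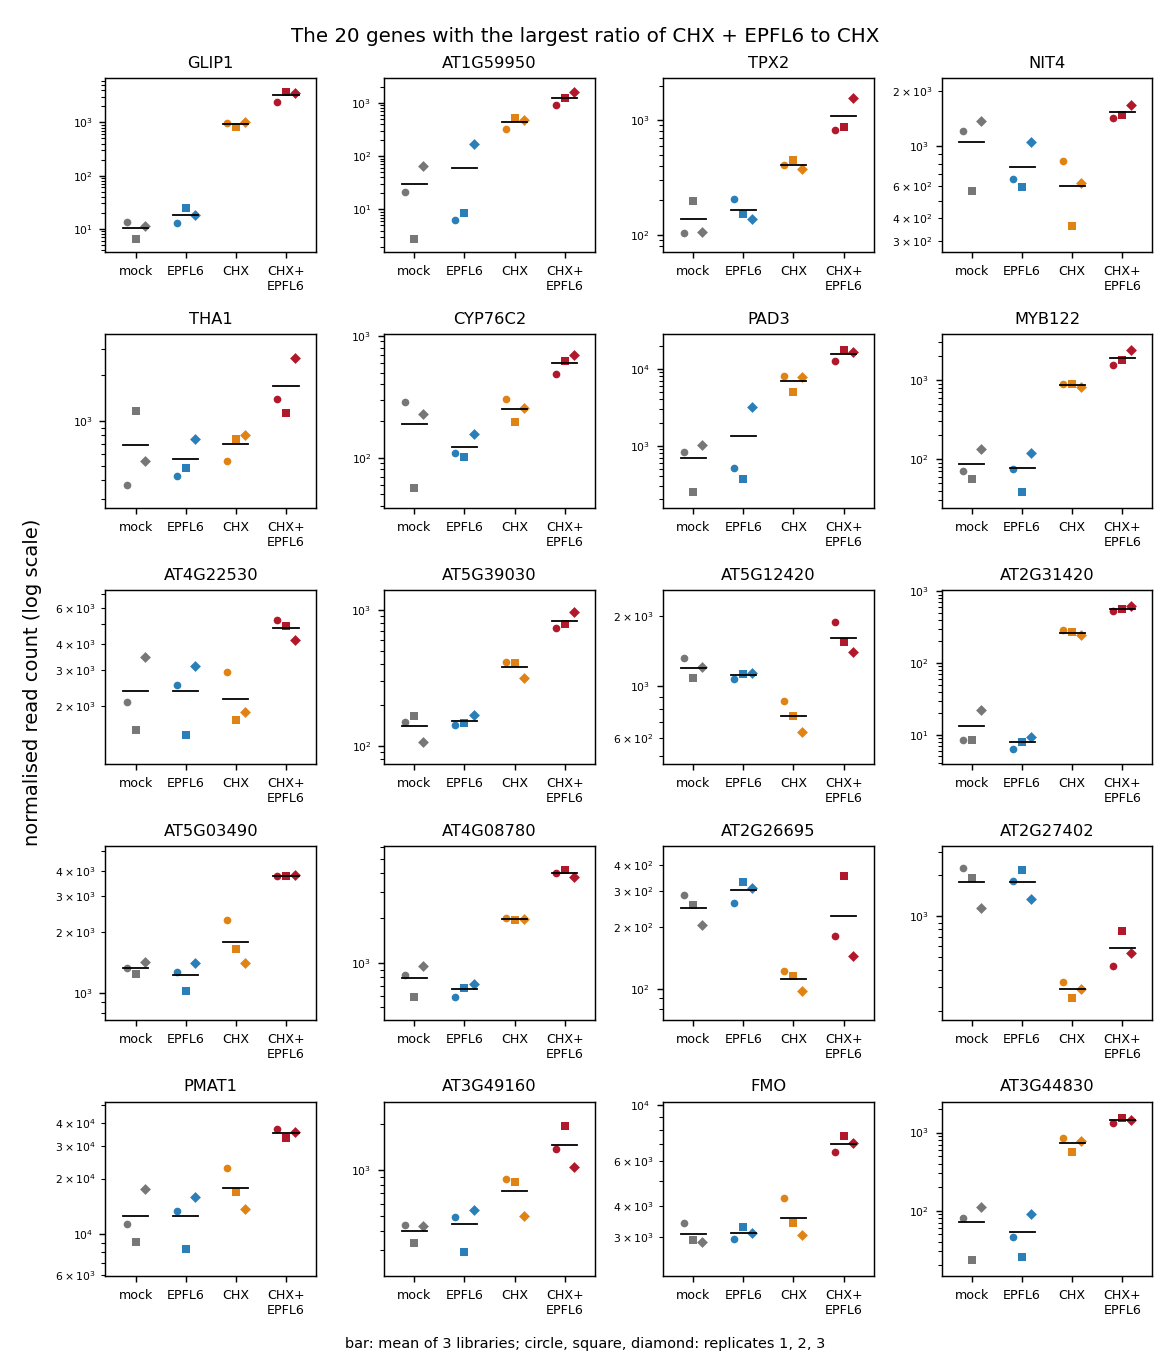
Normalised read counts (log axis) of the 20 members with the largest ratio of CHX plus EPFL6 to CHX, in every library of the 4 groups, with a bar at the mean of 3 libraries and circles, squares and diamonds for replicates 1, 2 and 3. The CHX plus EPFL6 libraries lie above the CHX libraries in every panel, as the rule required, while the CHX libraries lie above mock in panels such as GLIP1 and AT2G31420 and below it in AT2G26695, AT2G27402 and AT5G12420.

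Peroxidases and antioxidant enzymes made up 6 members, 5 with CHX above mock, against 43.3% of all genes with a CHX mean of at least 100. TPX2 (AT1G65970) is a type II peroxiredoxin that reduces peroxides with thioredoxin. TPX2 measured 105, 199 and 106 in mock, 203, 153 and 137 with EPFL6, 409, 448 and 373 with CHX, and 811, 875 and 1550.1 with CHX plus EPFL6. CHX plus EPFL6 replicate 3 stood far above the other two libraries of its group, and the ratio was 2.63 (log2 difference 1.33 ± 0.29). TPX2 overlaps AT1G65960 on the other strand by 359 bases, and it has near-identical relatives, so some of its reads may belong elsewhere; AT1G65960 itself was at 9987 with CHX and 10219 with CHX plus EPFL6.

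The other 4 with CHX above mock are class III peroxidases, secreted enzymes that make or use hydrogen peroxide in the cell wall. AT4G08780 and Prx37 (AT4G08770) are neighbours on chromosome 4, on opposite strands with 3706 bases between them, and are close copies of each other, so reads may be split between them. AT4G08780 was at 826, 591 and 944 in mock, 589, 678 and 720.0 with EPFL6, 2006, 1953 and 1978 with CHX, and 4055, 4241 and 3797 with CHX plus EPFL6. Its CHX and CHX plus EPFL6 libraries were tightly grouped, at a ratio of 2.04 (log2 difference 1.02 ± 0.14). Prx37 had values of 4655, 3327 and 4518 in mock, 3125, 4016 and 4752 with EPFL6, 17660.2, 15412 and 15699.8 with CHX, and 27142, 29082 and 23239 with CHX plus EPFL6. Prx37 had the same order of groups at a smaller ratio of 1.63. AT4G36430 stood at 1074, 1014 and 1468 in mock, 1475, 980.5 and 1347 with EPFL6, 4298, 3854 and 3487 with CHX, and 4997, 8449 and 6477 with CHX plus EPFL6. AT4G36430 was spread more widely with CHX plus EPFL6, from just above the CHX libraries to well above them. PRXCA measured 2265, 1130.0 and 1907 in mock, 1447, 2173 and 2473 with EPFL6, 21773, 18332 and 20233 with CHX, and 32564, 32324 and 32568 with CHX plus EPFL6. PRXCA (AT3G49110), known for its part in the oxidative burst, was nearly equal in its 3 CHX plus EPFL6 libraries and above all CHX libraries, at a ratio of 1.62. Among the 60 class III peroxidases tested that are not members, 0 were called higher and 7 lower under both treatments than under CHX (limma, adjusted p under 0.05). At an unadjusted p under 0.05, 1 was higher and 17 lower, and edgeR and DESeq2 also called 0 higher. The median log2 difference of all 64 tested, members included, was −0.22. Over all 23225 genes tested, members included, 5.89% were called higher and 7.63% lower in that comparison. Members were left out of this and the other family counts because the rule chose them as higher there. Leaving them out lowers the counts called higher in advance. No contrast between members and their relatives is read from these counts.

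Stromal ascorbate peroxidase SAPX (AT4G08390), which removes hydrogen peroxide in plastids, was the sixth and stood nearest to the fold required. Its ratio was 1.60024, with AT1G33475 at 1.60047 and AT3G07870 at 1.60287 next inside the threshold. AT4G03420 at 1.59976, AT1G25370 at 1.59903 and AT5G48570 at 1.58918 were the nearest outside it.

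Detoxification and conjugation enzymes were the largest group with a known role, at 11 members, and in 8 of them the CHX and mock libraries overlapped. In these 8 all CHX plus EPFL6 libraries stood above all mock libraries, as in 20.6% of all genes with such an overlap, a count to which the rule contributed. AT1G59950, annotated as an NAD(P)-linked oxidoreductase, was the 1 member of the group with CHX above mock. AT1G59950 was at 21.2, 2.78 and 65.2 in mock, 6.36, 8.68 and 167 with EPFL6, 328, 533 and 475 with CHX, and 908, 1224 and 1625 with CHX plus EPFL6. Replicates without CHX varied widely, EPFL6 replicate 3 being the highest of them, and the ratio was 2.81. The log2 difference was 1.48 ± 1.17, a large error that includes the spread of the libraries without CHX. CYP76C2 (AT2G45570) is a cytochrome P450 of a subfamily that oxidises monoterpene alcohols. CYP76C2 had values of 286, 56.6 and 227 in mock, 109, 101 and 156 with EPFL6, 305, 196 and 254 with CHX, and 482, 625 and 698 with CHX plus EPFL6. Mock replicate 2 was low, the CHX libraries lay across the mock range, and the CHX plus EPFL6 libraries stood above all others. Its ratio was 2.39.

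AT4G22530, an S-adenosylmethionine-dependent methyltransferase by annotation, followed. AT4G22530 stood at 2094, 1535 and 3462 in mock, 2536, 1447 and 3126 with EPFL6, 2915, 1721 and 1883 with CHX, and 5268, 4922 and 4175 with CHX plus EPFL6. The libraries of the first 3 groups were interleaved and the CHX plus EPFL6 libraries were higher than all of them, at a ratio of 2.20. AT5G03490 and AT2G36780 are UDP-glycosyltransferases, which attach sugars to small molecules. AT5G03490 measured 1335, 1242 and 1419.7 in mock, 1264, 1021 and 1405 with EPFL6, 2286, 1645 and 1406 with CHX, and 3764, 3774 and 3804 with CHX plus EPFL6. The 3 CHX plus EPFL6 libraries of AT5G03490 agreed closely, at a ratio of 2.13 (log2 difference 1.12 ± 0.16). AT2G36780 was at 1432, 1190.3 and 2666 in mock, 1719, 697 and 2092 with EPFL6, 2792, 2279.8 and 1897 with CHX, and 4917, 3168 and 3249 with CHX plus EPFL6. For AT2G36780 the ratio was 1.63, and CHX plus EPFL6 replicate 1 was well above the other two. Of 109 UDP-glycosyltransferases tested outside the set, 5 were called higher and 11 lower in that comparison (limma).

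PMAT1 (AT5G39050) adds malonyl groups to glucosides of phenolic xenobiotics. PMAT1 had values of 11329.6, 9022 and 17485 in mock, 13341, 8297 and 15891 with EPFL6, 22722, 16827 and 13766 with CHX, and 36955, 33263 and 35805 with CHX plus EPFL6. Its CHX libraries overlapped mock, CHX replicate 1 being the highest, and CHX plus EPFL6 stood at 1.99 times CHX. FMO (AT1G12200) encodes a flavin-binding monooxygenase. FMO stood at 3425, 2940.1 and 2873 in mock, 2958, 3282 and 3121 with EPFL6, 4289, 3422 and 3055 with CHX, and 6536, 7523 and 7086 with CHX plus EPFL6. All CHX plus EPFL6 libraries were above the 9 others, at a ratio of 1.96 (log2 difference 0.99 ± 0.12).

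The other two P450 genes of the group were CYP71A22 (AT3G48310) and CYP710A1 (AT2G34500), the latter a sterol desaturase. CYP71A22 measured 2203, 2265 and 2171 in mock, 2307, 2206 and 2306 with EPFL6, 2225, 1844 and 1868 with CHX, and 3706, 3506 and 3943 with CHX plus EPFL6. CYP71A22 had the smallest error of the 108 members, with the mock, EPFL6 and CHX libraries close together and a log2 difference of 0.91 ± 0.07. CYP710A1 was at 925, 334 and 960.0 in mock, 709, 334 and 1056 with EPFL6, 873, 656 and 536 with CHX, and 1534, 1198 and 1060.4 with CHX plus EPFL6. CYP710A1 varied among mock and EPFL6 replicates, and its CHX plus EPFL6 libraries were nonetheless above all of them. Across 194 cytochrome P450 genes tested outside the set, 10 were called higher and 12 lower (limma). BGLU10 (AT4G27830) is another beta-glucosidase. BGLU10 had values of 4965, 4292 and 5278 in mock, 4546, 4243 and 4754 with EPFL6, 3887, 2406 and 2880.2 with CHX, and 5454, 5235 and 4872 with CHX plus EPFL6. With CHX it was below mock, and with CHX plus EPFL6 it overlapped mock.

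Membrane transporters made up 9 members, 5 with CHX above mock, against 43.3% of all genes with a CHX mean of at least 100. MATE transporters, which export organic compounds in exchange for protons, were 3 of the 9, and these 3 did not go the same way with CHX. AT4G23030 stood at 143, 84.4 and 183 in mock, 116, 89.4 and 208 with EPFL6, 3310.5, 3892 and 3474 with CHX, and 5441, 6292 and 6113 with CHX plus EPFL6. AT4G23030 was 26.0-fold above mock with CHX and higher again with CHX plus EPFL6. AT3G21690 measured 10914, 9725 and 12424 in mock, 10493, 9483 and 11416 with EPFL6, 6985, 3939 and 4676 with CHX, and 9895, 10204 and 8997 with CHX plus EPFL6. In contrast, AT3G21690 was below mock with CHX and overlapped mock with CHX plus EPFL6. AT1G71140 was at 861, 664 and 960.0 in mock, 671, 674 and 739.6 with EPFL6, 233, 104 and 213 with CHX, and 371, 282 and 349 with CHX plus EPFL6. AT1G71140 was below mock with both, its CHX plus EPFL6 libraries reaching 0.403 of the mock mean. Of 46 MATE genes tested outside the set, 3 were called higher and 7 lower in CHX plus EPFL6 against CHX (limma).

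Other transporters, picked after their values were seen, included MSS1 (AT5G26340), a hexose symporter also called STP13, at means of 2957 ± 982 in mock, 27497 ± 1761 with CHX and 44868 ± 4073 with CHX plus EPFL6. The cation/H+ exchanger gene CHX17 (AT4G23700), whose name has nothing to do with the drug, was at 583 ± 37.0, 11519 ± 618 and 19868 ± 5171. AT3G63380, an ATPase of the E1-E2 type, was at 3373 ± 1636, 44046 ± 2220.3 and 74475 ± 6614. In each of the 3 the CHX libraries lay above all mock libraries and the CHX plus EPFL6 libraries above all CHX libraries.

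Receptors and signalling proteins made up 8 members. AT5G39030, listed as MDS4 of the MEDOS group, is a receptor kinase with a malectin-like outer domain. AT5G39030 had values of 151, 165 and 107 in mock, 142, 148 and 170.0 with EPFL6, 410.4, 404 and 318 with CHX, and 738, 792 and 954 with CHX plus EPFL6. Mock and EPFL6 overlapped, CHX stood above both and CHX plus EPFL6 above CHX, at a ratio of 2.19 (log2 difference 1.13 ± 0.17). The 4 MEDOS genes resemble each other, and reads may be shared among them. Of the other 3, 0 were called by limma, edgeR or DESeq2, and 0 had an unadjusted p under 0.05 in limma. AT4G02420 stood at 162, 177 and 125 in mock, 146, 178 and 147 with EPFL6, 134, 140.4 and 106 with CHX, and 167, 336 and 181 with CHX plus EPFL6. AT3G08870 measured 71.0, 46.4 and 64.2 in mock, 67.4, 67.7 and 107 with EPFL6, 158, 141 and 144 with CHX, and 179.5, 380.1 and 205 with CHX plus EPFL6. AT4G02420 and AT3G08870 are L-type lectin receptor kinases, and in both CHX plus EPFL6 replicate 2 was well above the other two libraries of its group. Without that library the log2 difference of AT4G02420 was 0.46, against 0.77 with all libraries. For AT3G08870 it was 0.37, against 0.70. Of 32 L-type lectin receptor kinases tested outside the set, limma called 0 higher and 3 lower, with 2 higher and 8 lower at an unadjusted p under 0.05, and edgeR and DESeq2 each called 1 higher. HAE (AT4G28490), the receptor kinase HAESA of organ abscission, was picked after its values were seen. Its means were 876 ± 52.5 in mock, 2348 ± 393 with CHX and 4157 ± 514 with CHX plus EPFL6. PYL6 (AT2G40330), an abscisic acid receptor, was at 2278 ± 111, 2241 ± 576 and 3741 ± 241. RGF7 was at 287, 346 and 247 in mock, 398, 279 and 262 with EPFL6, 149, 128 and 183 with CHX, and 202, 287 and 275 with CHX plus EPFL6. RGF7 (AT3G02240) belongs to the root meristem growth factor peptides, and its CHX plus EPFL6 libraries overlapped mock.

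Beside MYB122, counted with the defence genes, 7 members were grouped as transcription factors, 3 above mock with CHX, 3 below and 1 overlapping. AT2G31420, a B3 domain protein, lies beside a second member, the coiled-coil protein gene AT2G31410, on the same strand of chromosome 2 with 436 bases between them. AT2G31420 had values of 8.47, 8.35 and 22.4 in mock, 6.36, 7.81 and 9.27 with EPFL6, 285, 268 and 248 with CHX, and 528, 565 and 631 with CHX plus EPFL6. From under 25 without CHX it stood far higher with it, at a ratio of CHX plus EPFL6 to CHX of 2.15. AT2G31410 stood at 5335, 4817 and 5577 in mock, 5175, 5157 and 5807 with EPFL6, 4831, 3877 and 3746 with CHX, and 6452, 7165 and 6769 with CHX plus EPFL6. The neighbour AT2G31410 overlapped mock with CHX and was above mock with CHX plus EPFL6, so the adjoining genes differed in their CHX values. NAP (AT1G69490), a NAC factor of leaf senescence, WRKY45 (AT3G01970) and the ovule homeobox gene BEL1 (AT5G41410) were all below mock with CHX, and LZF1 (AT1G78600), a B-box factor of light responses, was above it. The choice of these 4 followed their values.

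Enzymes of primary and lipid metabolism made up 10 members. THA1 (AT1G08630) encodes threonine aldolase, which splits threonine into glycine and acetaldehyde. THA1 measured 374, 1153 and 539 in mock, 431, 486 and 749.9 with EPFL6, 538, 758 and 806 with CHX, and 1388, 1126 and 2619 with CHX plus EPFL6. All 4 groups varied, mock replicate 2 was above the lowest CHX plus EPFL6 library, and CHX plus EPFL6 replicate 3 stood apart at the top. Its ratio was 2.44 (log2 difference 1.21 ± 0.41), and without CHX plus EPFL6 replicate 3 the log2 difference was 0.86. AT5G12420, listed as WSD7, belongs to the family of wax ester synthases and diacylglycerol acyltransferases. AT5G12420 was at 1315, 1079.9 and 1207 in mock, 1077, 1129 and 1135 with EPFL6, 861, 746 and 633 with CHX, and 1879, 1553 and 1395 with CHX plus EPFL6. CHX gave values below mock and CHX plus EPFL6 values above mock, with no overlap in either case, at a ratio of 2.16 (log2 difference 1.11 ± 0.13). Its relatives WSD4 and WSD8 went the other way: limma called both lower in CHX plus EPFL6 against CHX, WSD4 by a log2 difference of −0.89 ± 0.24 (limma adjusted p = 0.0367) and WSD8 by −0.91 ± 0.22 (limma adjusted p = 0.0250).

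AT3G49160 is annotated as a pyruvate kinase and AT3G44830 as a lecithin:cholesterol acyltransferase, an enzyme type that moves acyl groups between lipids. AT3G49160 had values of 439, 333 and 430.1 in mock, 495, 288 and 548 with EPFL6, 864, 833 and 498 with CHX, and 1376, 1932 and 1048 with CHX plus EPFL6. For AT3G49160 the CHX and CHX plus EPFL6 libraries were both spread, replicate 3 being the lowest of each group, at a ratio of 1.98. AT3G44830 stood at 80.5, 23.2 and 110.1 in mock, 45.8, 25.2 and 90.6 with EPFL6, 844, 559.5 and 782 with CHX, and 1332, 1520.3 and 1437 with CHX plus EPFL6. AT3G44830 was far above mock in all CHX libraries and its CHX plus EPFL6 mean stood at 1.96 times the CHX mean.

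The adjoining genes AT5G17380 and AT5G17390 start 560 bases apart on opposite strands of chromosome 5. AT5G17380 is annotated as a thiamine pyrophosphate enzyme, and AT5G17390 as an adenine nucleotide alpha hydrolase-like protein, a fold shared with universal stress proteins. AT5G17380 measured 17307, 14416 and 22116 in mock, 17679.7, 14255 and 21633 with EPFL6, 16310.5, 11208 and 13140.4 with CHX, and 22101, 21043 and 22809 with CHX plus EPFL6. AT5G17390 was at 551, 383 and 703 in mock, 481, 468 and 632 with EPFL6, 441, 209 and 307 with CHX, and 549, 602 and 571 with CHX plus EPFL6. Both genes had CHX and CHX plus EPFL6 libraries that overlapped mock, with CHX replicate 1 the highest of the CHX libraries. RD2 had values of 10582, 8981 and 12482 in mock, 10346, 8533 and 12347 with EPFL6, 8302, 6149 and 6627 with CHX, and 11817, 11042 and 11210.1 with CHX plus EPFL6. RD2 (AT2G21620), a dehydration-responsive member of the same hydrolase-like family, was below mock with CHX and overlapped it with CHX plus EPFL6. Of 22 genes of that family tested outside the set, 0 were called higher and 1 lower in limma, with 2 and 3 at an unadjusted p under 0.05. EdgeR and DESeq2 called 0 higher.

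A further neighbouring pair on chromosome 5, with 4 genes between its members, was AT5G12110 and CLT3 (AT5G12170). AT5G12110 encodes a subunit of translation elongation factor 1, and CLT3 a plastid envelope transporter of glutathione and related thiols. AT5G12110 stood at 2243, 2206 and 2158 in mock, 2612, 2629 and 2969.7 with EPFL6, 379, 242 and 305 with CHX, and 559, 598 and 401 with CHX plus EPFL6. AT5G12110 was far below mock with CHX, above mock in all EPFL6 libraries, and between with CHX plus EPFL6. AT5G12120, on the other strand, covers 1221 bases of it, and reads of the pair may be mixed. CLT3 measured 4925, 5109 and 6496 in mock, 5974, 5214 and 6831 with EPFL6, 6362, 4074 and 4437 with CHX, and 8149, 8354 and 8354 with CHX plus EPFL6. CLT3 overlapped mock with CHX and lay above it with CHX plus EPFL6. AT5G39030 and PMAT1, described above, also neighbour each other, with 2 genes between them.

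Where 43.3% of all genes with a CHX mean of at least 100 had CHX above mock, all 4 cell wall members did. They were the xyloglucan-modifying gene XTH29 (AT4G18990), AT3G57380, AT3G55780 and AT2G28755, with ratios of CHX plus EPFL6 to CHX between 1.68 and 1.89. The choice to name them followed their values.

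All 8 plastid and photosynthesis members were below mock with CHX, at 0.145 to 0.435 of the mock mean. They were higher with CHX plus EPFL6, as the rule required. Of all genes with a CHX mean of at least 100, 38.8% were below mock with CHX. Among 6 mesophyll and photosynthesis markers outside the set, limma called 4 lower and 0 higher with CHX against mock. Being below mock with CHX is thus not particular to these members. The count of 8 depends on how members were sorted, since SAPX and CLT3, counted in other groups, also act in plastids. With CHX, SAPX was below mock at 0.444 of its mean, and CLT3 overlapped mock at 0.900. Apart from AT2G27402, the 8 members were named because they form this group, after their values were seen. FED A (AT1G60950) encodes leaf ferredoxin, which carries electrons away from photosystem I. FED A was at 22119, 36108 and 15950.5 in mock, 23882, 35278 and 18993 with EPFL6, 6519, 5195 and 4277 with CHX, and 7869, 12938 and 8047 with CHX plus EPFL6. CHX plus EPFL6 remained below every mock library, and the ratio to CHX was 1.80 (log2 difference 0.83 ± 0.32). PSAN (AT5G64040) is subunit N of photosystem I. PSAN had values of 18533, 33452 and 11279.8 in mock, 19008, 28766 and 12216 with EPFL6, 6819, 7849.8 and 6298 with CHX, and 9704, 15179.9 and 12694 with CHX plus EPFL6. Its CHX plus EPFL6 libraries overlapped mock. AT2G26500 encodes the petM subunit of the cytochrome b6f complex, which passes electrons between the photosystems. AT2G26500 stood at 12288, 20216 and 10379 in mock, 13609, 19876 and 10493 with EPFL6, 4646, 4534 and 3665 with CHX, and 5676, 9213 and 6933 with CHX plus EPFL6. With CHX plus EPFL6 it remained below mock in all libraries, at 0.509 of the mock mean.

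AT2G27402 is annotated as a plastid transcriptionally active protein. AT2G27402 measured 2257, 1929 and 1146 in mock, 1831, 2195 and 1337 with EPFL6, 329, 249 and 291 with CHX, and 432, 782 and 541 with CHX plus EPFL6. It was the member of the group with the largest ratio, 2.02, and still below mock with CHX plus EPFL6. NYC1 (AT4G13250) is a chlorophyll b reductase. NYC1 was at 3988, 7096 and 4206 in mock, 4265, 6746 and 4537 with EPFL6, 1808, 2677 and 2169 with CHX, and 2805, 4957 and 3814 with CHX plus EPFL6. ENH1 (AT5G17170) is a rubredoxin-like plastid protein. ENH1 had values of 1884, 3029 and 1344 in mock, 2042, 3767 and 2035 with EPFL6, 798, 935 and 730.2 with CHX, and 1154, 2374 and 1102 with CHX plus EPFL6. In both, CHX plus EPFL6 replicate 2 stood at the top of its group and overlapped mock. Without that library the log2 difference of ENH1 was 0.47, against 0.82 with all libraries. The thylakoid phosphoprotein gene AT3G47070 and the acyl-carrier-protein desaturase gene AT3G02620, which acts in plastid fatty acid synthesis, had ratios of 1.62 and 1.66. AT3G47060 covers 375 bases of AT3G47070 on the other strand.

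One replicate was at the top of these 8 genes in more than 1 group. Replicate 2 was the highest library in 6 of 8 in mock, 7 of 8 with EPFL6 and 8 of 8 with CHX plus EPFL6, but in 3 of 8 with CHX. The share over all genes was not computed. In photosynthesis genes outside the set, the summed level of 6 mesophyll markers was 777100 in mock (range 509260 to 1091300), 398100 with CHX (341240 to 467520) and 492860 with CHX plus EPFL6 (393580 to 596530). RBCS1A made up most of that sum, the CHX plus EPFL6 range overlapped both the mock and the CHX range, and the mean of LHCB2.1 was 8825 with CHX and 8488 with CHX plus EPFL6. Of the 6 markers, limma, edgeR and DESeq2 called 0 with CHX plus EPFL6 against CHX, 0 had an unadjusted p under 0.05 in limma, and their median log2 difference was 0.37. The part of these marker levels in the 8 members was not tested.

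**Figure D3:**
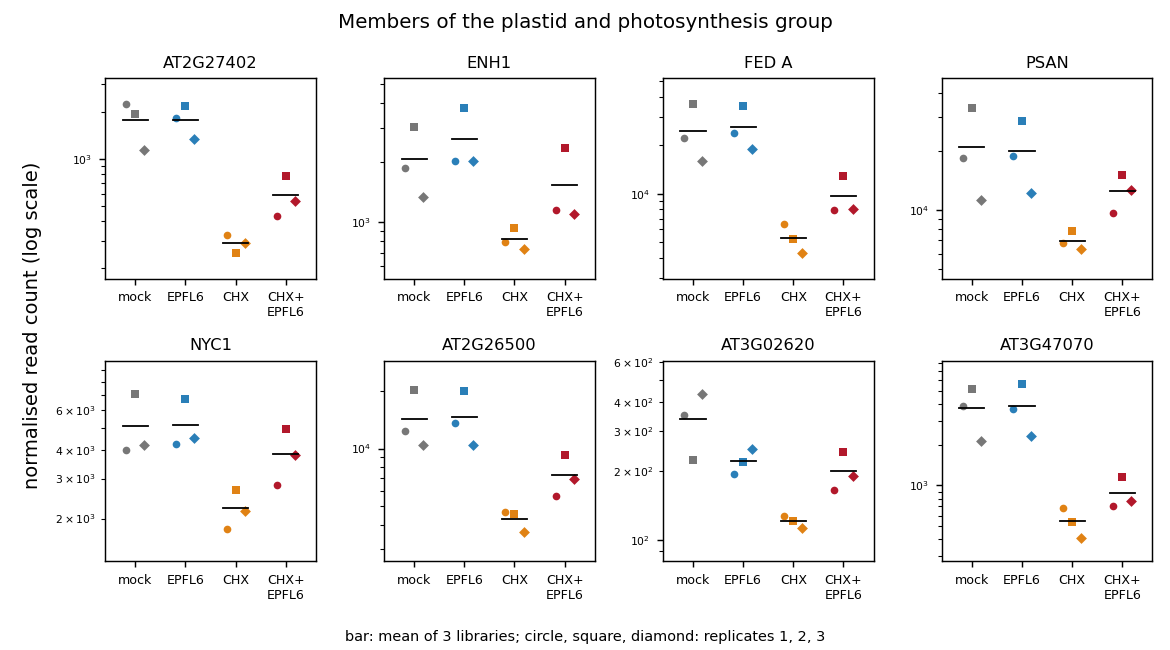
Normalised read counts (log axis) of the 8 plastid and photosynthesis members in every library, with a bar at the mean of 3 libraries and circles, squares and diamonds for replicates 1, 2 and 3. CHX libraries are the lowest in each panel, CHX plus EPFL6 libraries lie between them and mock or overlap mock, and the squares (replicate 2) are the highest CHX plus EPFL6 library in all 8.

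The remaining 37 members have other or unknown roles, with 13 above mock with CHX, 18 below and 6 overlapping. In the top 20 was the zinc finger gene AT2G26695. AT2G26695 stood at 286, 255 and 205 in mock, 262, 332 and 310.0 with EPFL6, 122, 116 and 97.7 with CHX, and 181, 356 and 145 with CHX plus EPFL6. With CHX it was below mock, and CHX plus EPFL6 replicate 2 lay above mock while the other two lay below, so the ratio of 2.03 leaned on that library; without it the log2 difference was 0.53, against 0.91 ± 0.28 with all libraries. Picked after the values were seen, AT2G37805, a C1 domain protein, had the largest ratio of CHX to mock (351), and the glycine-rich protein gene AT2G05540 the smallest (0.101). Ratios of CHX plus EPFL6 to CHX in these 37 reached 2.03. Protein-coding genes were 106 of the 108 members, and the median gene length was 2064 bases, against 2457 over the 18590 genes with a CHX mean of at least 100 and a known length. The members lay on all 5 chromosomes, with 26, 20, 19, 19 and 24 genes on chromosomes 1 to 5.

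The rule used no library without cycloheximide, so the difference between EPFL6 and mock was not used to choose the members. Its error was taken from a fit of all 4 groups, to which the 6 libraries of the rule contribute, and a fit of the 6 libraries without CHX is given beside it. In the fit of 4 groups none of the 108 members was called between EPFL6 and mock (limma, Benjamini-Hochberg adjusted p under 0.05), and the lowest adjusted p of a member was 0.451. Of all 23225 genes tested, 4 were called (0.0172%), and these were lower. At an unadjusted p under 0.05, 5 members passed, 2 higher and 3 lower, and 3.05% of all genes did so. In the fit of the 6 libraries without CHX, limma called 0 members and 0 of all genes, the lowest adjusted p of a member was 1, and 3 members, AT3G55780 and AT5G12110 higher and AT1G26410 lower, had an unadjusted p under 0.05, as did 2.84% of all genes. EdgeR and DESeq2 on the recovered reads, again with 4 groups, also called 0 members, with 4 and 5 at an unadjusted p under 0.05. Members lay on both sides of 0: 56 were higher and 52 lower on average, the median log2 difference was 0.01, and the range was −0.79 to 0.91. The split of higher and lower members moved with the libraries kept: it was 43 to 65 without mock replicate 2 and 70 to 38 without EPFL6 replicate 2. The median of all genes tested was 0.00, and their 5th and 95th percentiles were −0.35 and 0.34.

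The 5 members past the unadjusted level in the fit of 4 groups were AT3G55780, GLIP1, AT1G26410, AACT1 and AT3G02620, named because the count is small. AT3G55780 measured 8.47, 9.28 and 9.17 in mock, 20.3, 13.9 and 19.6 with EPFL6, 125, 111 and 88.4 with CHX, and 172, 195 and 193 with CHX plus EPFL6. AT3G55780, annotated as a glycosyl hydrolase, had all EPFL6 libraries above all mock libraries, with a log2 difference of 0.91 ± 0.19 (limma adjusted p = 0.451) at values near 10 to 20. GLIP1 was at 0.78 ± 0.29 and the 3 EPFL6 libraries overlapped mock (limma adjusted p = 1). AT1G26410 was at −0.64 ± 0.17, AACT1 at −0.65 ± 0.26 and AT3G02620 at −0.56 ± 0.22 (limma adjusted p = 1 for each). Without regard to p, 2 members had all EPFL6 libraries above all mock libraries and 3 had all below, where 3.29% and 2.85% of genes with a CHX mean of at least 100 did so.

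A p that misses the threshold does not show that EPFL6 left a gene as it was. The 95% interval of the difference lay within 1 log2 unit on either side of 0 for 84 of the 108 members, and for 78 in the fit of the 6 libraries without CHX. For the rest the interval reached beyond that, and these include GLIP1, NIT4, PAD3, MYB122, CYP76C2, THA1 and AT1G59950. The errors of the log2 differences had a median of 0.21 and ran from 0.07 to 1.17.

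**Figure D4:**
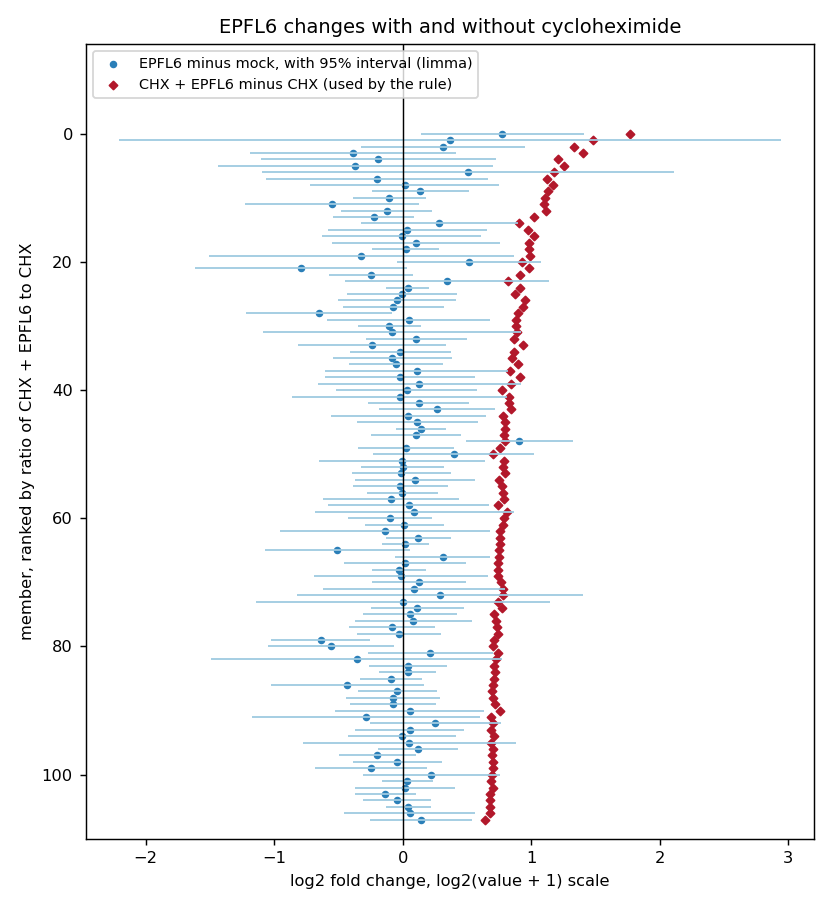
Log2 fold changes on the log2(value + 1) scale for the 108 members in order of their ratio of CHX plus EPFL6 to CHX. Blue points with lines are EPFL6 minus mock with 95% intervals from limma, and red diamonds are CHX plus EPFL6 minus CHX, which the rule used. The diamonds run from 0.64 to 1.77, and the blue points lie on both sides of 0 between −0.79 and 0.91.

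In the comparison that chose them, members had a median log2 difference of 0.78 between CHX plus EPFL6 and CHX, on the log2(value + 1) scale. The rule used the same libraries, so calls of members there are not given. Over all 23225 genes tested, limma called 1367 higher (5.89%), edgeR 1321 and DESeq2 2152. Every member passed the filter on low values, which the minimum of 100 with CHX and the bar on overlapping libraries together guaranteed. In CHX against mock, which also uses libraries of the rule, limma called 79.2% of all genes, 40.9% higher and 38.3% lower. The median of the members there was 0.10 with the deposited scaling and −0.65 when libraries were scaled by their total reads, which moved the median of all genes from 0.02 to −0.73. Above and below mock are therefore relative to the deposited scaling.

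How the rule carries over to libraries not used in choosing was described by applying the rule to replicates 1 to 3 with 1 number held out of both CHX groups. These genes are not the 108: of the 223, 115 and 109 chosen without replicates 1, 2 and 3, 98, 64 and 77 are members, and the values are over all chosen genes. Without replicate 1 the rule chose 223 genes, whose median ratio was 1.75 in the libraries used and 1.32 in the held-out pair. Without replicate 2 it chose 115, at 1.73 and 1.53, and without replicate 3 it chose 109, at 1.76 and 1.64. In the held-out pair 90.6%, 80.0% and 93.6% of the chosen genes were above 1, against 52.8%, 53.8% and 54.0% of all genes with a CHX mean of at least 100. The fold of 1.6 was reached again by 14.4%, 43.5% and 54.1% of the chosen genes, against 0.59%, 3.06% and 2.27% of all. The ratios were smaller in the held-out pair each time. The full rule required every member to be above 1 in each pair, so these shares do not test the 108.

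The replicates also differed in where members were highest. CHX replicate 1 was the highest CHX library in 74 of 108 members, and CHX plus EPFL6 replicate 2 the highest of its group in 55. In detoxification genes CHX replicate 1 was the highest CHX library in 10 of 11. The same counts over all genes were not computed, so nothing particular to the members is read from these. Without CHX replicate 1 the rule found 203 genes, 97 of them members.

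Related genes outside the set were read from lists named with earlier results of these data known. In CHX plus EPFL6 against CHX, limma called 5.89% of all genes tested higher and 7.63% lower. Of the 7 GDSL lipases GLIP1 to GLIP7, GLIP1 is a member, and GLIP3 was called higher in CHX plus EPFL6 against CHX, from a mean of 802 to 1190 (log2 difference 0.58 ± 0.13, limma adjusted p = 0.0195). The other 5 were not called by limma, edgeR or DESeq2, with log2 differences from −0.94 for GLIP6 to 0.11 for GLIP4, and the median of all 7 was −0.27. Of the 4 WSD genes tested, 1 is the member WSD7, and 2 of the other 3 were called lower (limma). Of the 13 salicylic acid defence genes tested, limma called 0, with 4 lower at an unadjusted p under 0.05 and a median log2 difference of −0.50. DESeq2 called 3 of them lower and edgeR 0. Their summed level was 6471 in mock, 151180 with CHX and 100940 with CHX plus EPFL6. Of the 8 jasmonate and ethylene defence genes limma called 0, with 2 lower at the unadjusted level and a median of −0.95, and DESeq2 called 2 lower and edgeR 0. Of the 11 xenobiotic and oxylipin detoxification genes limma, edgeR and DESeq2 called 0, with 0 at the unadjusted level in limma and a median of 0.09. Of the 7 phenylpropanoid and flavonoid enzymes limma called 0, with 1 higher and 3 lower at the unadjusted level and a median of −0.37, and DESeq2 called 2 lower and edgeR 0. Among 13 genes of coumarin synthesis and iron deficiency, 0 were called higher and 2 lower, and among 8 abscisic acid and osmotic genes 0 and 2.

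Marker lists of other cells were read in the same comparison, where limma called 7.63% of all genes tested lower and 5.89% higher. All 5 shoot meristem markers were called lower, as were 1 of 10 root markers and 1 of 3 stomatal lineage markers (limma). Of the 6 epidermis markers limma called 0, with 1 higher and 1 lower at an unadjusted p under 0.05, and edgeR and DESeq2 called 1 lower. Of the 6 vasculature markers all 3 tools called 0, with 1 lower at the unadjusted level. Seed storage genes were too low to test. In EPFL6 against mock, limma and edgeR called 1 shoot meristem marker, CLV3, lower, with a log2 difference of −1.13 (limma adjusted p = 0.00860), and limma called 0 with the replicate number as a block or with only the 6 libraries without CHX. DESeq2 called 2 higher and 2 lower, and limma had 2 each way at an unadjusted p under 0.05. ESR1 had means of 62.2 in mock and 160.8 with EPFL6 and UFO 64.1 and 149, and WUS was at a log2 difference of −1.60 (limma adjusted p = 0.0898). Limma called 0 genes of the other lists, where 1 stomatal lineage marker and 1 list gene that is a member, GLIP1, had an unadjusted p under 0.05, and edgeR and DESeq2 called 0 there as well. No gene of the marker lists is a member.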

How the data were processed

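RNA of 12 libraries, 3 in each of 4 groups taken from the labels, was analysed. The submitters' processing notes name STAR (2.7.6a), featureCounts (2.0.0), DESeq2 (1.26.0) and the TAIR10 genome. What each tool did, the counting mode and the strand setting are not given in the sources used here, so reads of overlapping genes may be shared. The deposited values are a read signal per gene that the authors scaled by a size factor for each library. The scaling was found from the values: multiplied by the factor, 100% lay within 1e-06 of a whole number.

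Members were chosen by the rule on deposited values. Genes entered the fit if 3 or more libraries had a value of 10 or more, which kept 23225. A single limma fit (3.58.1, R 4.3.3) of log2(value + 1) covered the 4 groups, with intensity trend and robust moderation. Adjusted p is Benjamini-Hochberg over all genes in the fit, two-sided, with a threshold of 0.05. On the recovered reads edgeR 4.0.16 called 2 genes in EPFL6 against mock, 18484 in CHX against mock and 3316 in CHX plus EPFL6 against CHX, and DESeq2 1.42.0 called 31, 18507 and 4721. The limma procedure was tested on simulated data with known changes. Alternatives were another pseudocount (8), no filter, these tools, other scalings, only the groups compared, a replicate block, each library left out, and other thresholds of the rule.

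Names, positions and promoters came from the RefSeq annotation of TAIR10.1, in which 26514 genes were found by locus tag. Values in every library are given for the 20 members with the largest ratio, members with a neighbouring member no more than 5 genes away, and members that share a list or annotated family with another. The marker lists (shoot meristem, epidermis, root, mesophyll, vasculature, stomatal lineage, seed storage) and gene lists (GDSL lipases, WSD, MEDOS, coumarin and iron, xenobiotic, salicylic acid, jasmonate and ethylene, abscisic acid, phenylpropanoid) are reported with their counts. The members, lists and tests were chosen with earlier results of these data known, and the functional groups after the values were seen. Replicates were separate pools of seedlings, and the reads carry no molecular identifiers.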

Additional observations from a re-analysis of the deposited data

Results flagged for a closer look

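In 3 members every EPFL6 library stood below every mock library, while every CHX plus EPFL6 library stood above every CHX library. Of all genes with a CHX mean of at least 100, 2.85% had every EPFL6 library below every mock library, so the count of 3 of 108 is near that background. They were TES (AT3G43210), a kinesin of male meiosis, with a log2 difference of −0.10 between EPFL6 and mock, AT1G26410 with −0.64 and AT3G21020 with −0.20. None passed the threshold between EPFL6 and mock (limma, adjusted p = 1 for each), and the difference between the responses with and without CHX was not tested, since the rule fixed the direction with CHX.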

How the results depend on the processing

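Among 192 recomputed counts and medians, 28 moved. The number of members was 192 at a fold of 1.5 (all 108 among them), 16 at a fold of 2, and 92 to 203 with 1 library left out, the highest without CHX replicate 1. It was 124 and 89 with a CHX mean of at least 50 and 200, 108 scaled by total reads (101 shared) and 107 scaled by TMM (106 shared). Members called between EPFL6 and mock were 0 under every alternative run. Genes called in that comparison were 4, against 2 with edgeR, 31 with DESeq2, 0 with only the groups compared and 1 to 5 with 1 library left out. Genes of the lists called there were 1, against 4 with DESeq2, 0 with only the groups compared and 0 to 3 with 1 library left out.

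Genes called with CHX plus EPFL6 against CHX were 3140, against 4721 with DESeq2, 1505 with only the groups compared and 1045 to 4009 with 1 library left out, where the counts were 1698 without CHX replicate 2, 1045 without CHX replicate 3, 1399 without CHX plus EPFL6 replicate 2 and 1219 without CHX plus EPFL6 replicate 3. Genes of the lists called there were 17, and 9 to 19 with 1 library left out. The members' median log2 difference there ranged from 0.73 to 0.86, and their median in CHX against mock was −0.65 when scaled by total reads. The 686 values of single named genes stayed within the spread of their replicates and 0 reversed. The cause of these shifts was not tested.

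Same-numbered libraries did not deviate together in every pair: r was −0.12, 0.28 and 0.42 between mock and EPFL6 for replicates 1, 2 and 3, and 0.16, 0.086 and −0.18 between CHX and CHX plus EPFL6. For replicate 2 it was above 0 in each pair of groups, at most 0.28. Not every pair was above 0.1, so the number was not used to pair samples in the fit of 4 groups. These values do not show that the samples are unpaired, and a shared batch was not tested. With the number as a replicate block, 1 gene was called between EPFL6 and mock, 0 of them from the lists and 0 members, and 2711 genes with CHX plus EPFL6 against CHX. With 3 libraries a group, differences above 1 log2 unit between EPFL6 and mock can go uncalled: WUS, at −1.60, did (limma adjusted p = 0.0898). For 24 members the 95% interval reached beyond 1 log2 unit, for AT1G59950 from −2.21 to 2.95.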
